A study of Bos taurus with 5 samples.

Results

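The heart-labelled and limb-labelled libraries of a set of 5 cattle (Bos taurus) RNA sequencing libraries were set against each other, gene by gene. A gene was taken as a member of the comparison when its higher value was at least 50 FPKM (sequenced fragments scaled by transcript length and by the library's mapped total, the unit taken for the deposited values, which no source names) and its higher value plus 1 was at least 4 times its lower value plus 1. Of the 27607 genes in the table, 2688 reached 50 FPKM in at least 1 of the pair, and 697 of those met the ratio. Higher in the heart-labelled library were 342 genes (12.7% of the 2688) and higher in the limb-labelled library were 355 (13.2%), together 25.9%. The values of this contrast chose the members, so their direction and size are a description and carry no test. Of 65 function lists, some of the most uneven are given here, picked after their counts were seen. TGF-beta, BMP, Notch and related signalling had 7 members on the heart side and 1 on the limb side of 14 genes at 50 FPKM or more (50% and 7.14%). Growth factor signalling had 9 and 3 of 24 (37.5% and 12.5%). By direction alone both lists were nearly even. In the former 8 genes were higher in the heart-labelled library and 6 in the limb-labelled one, and in the latter 13 and 11. Chromatin regulators had 2 on the heart side and 9 on the limb side of 32 (6.25% and 28.1%). Genes of transfer RNA processing and charging had 1 and 9 of 37 (2.70% and 24.3%), and cell death genes 2 and 6 of 15 (13.3% and 40%). Median higher values of these lists ran from 80.2 to 111 FPKM. Among all genes between 50 and 100 FPKM, 20.8% were members on the heart side and 20.6% on the limb side. Between 100 and 200 FPKM, where the median of the cell death list lay, the shares were 9.72% and 13.3%. How far level accounts for the list counts was not tested.

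The study holds 1 library for each of 5 tissues as labelled (brain, skin, lung, heart, limb), and the labels give no strain, sex, age, treatment or stage. Per the labels' protocols, cells were lysed, and their RNA was pre-amplified and made into libraries on a Fluidigm C1-HT chip, a microfluidic device that handles single cells. The sources used here give no number of cells or animals for any library. With 1 library a side, the spread between animals and between preparations is unknown, and tissue, animal and preparation cannot be told apart. Nor can fewer cells of a type be told apart from less RNA per cell. In every later pair of values the heart-labelled library comes first and the limb-labelled library after it, and values in the other 3 libraries come in the order brain, skin and lung.

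The heart is built mainly from cardiomyocytes, whose contraction depends on sarcomere proteins that few other cells make, held in a scaffold laid down by fibroblasts. A limb holds skeletal muscle, cartilage, bone, tendon and skin, and its connective tissue cells also secrete collagens and other matrix. Mesenchymal cells from either place share a program in which transforming growth factor beta (TGF-beta) and bone morphogenetic proteins (BMPs) regulate matrix, contractile and protease genes.

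The cell type markers did not bear out either label. Of 23 cardiomyocyte genes in the table, 21 were listed at 0 in both libraries, among them the sarcomere genes TNNT2, MYH6, MYH7, MYL2 and ACTN2 and the transcription factors NKX2-5 and GATA4. The remaining pair were ACTC1, cardiac alpha actin, at 5.21 against 231 FPKM and thus a member on the limb side, and FABP3, a fatty acid binding protein, at 36.01 against 0. FABP3 was at 324 in the skin-labelled and 246 in the lung-labelled library, above its heart-labelled value. Of 19 skeletal muscle genes, 17 were listed at 0 in both, with ACTA1, skeletal alpha actin, at 1.57 against 37.6 and TNNT1, slow skeletal troponin T, at 0 against 18.1. Of 14 cartilage and bone genes 11 were at 0 in both, the cartilage genes COL2A1 and ACAN included. SPP1 (osteopontin) was at 886 against 1753 and RUNX2 at 10.7 against 29.2, while SOX9 went the other way at 14.04 against 0. Of 15 limb patterning genes 12 were listed at 0 in both, with MSX1 at 3.66 against 0 and TWIST1 at 3.25 against 0. PRRX1, a homeobox factor of limb mesenchyme, was a member on the heart side at 199 against 22.8. The skin-labelled value of PRRX1 was higher still, at 282.

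Fibroblast and smooth muscle markers were above 0 in part. Of 16 fibroblast and matrix genes 6 were listed at 0 in both libraries (DCN, LUM, PDGFRA, PDGFRB, POSTN and THY1), as were 3 of 8 smooth muscle genes (MCAM, MYH11 and RGS5). Among the most abundant of the others, VIM, the intermediate filament of mesenchymal cells, stood at 2230.1 against 1399 FPKM, SPARC, a collagen-binding matrix protein, at 5472 against 2144, and ACTA2, smooth muscle actin, at 8209 against 9827. None of these met the ratio of 4. Every endothelial and blood marker was listed at 0 in both libraries. The labels are therefore used here only as names of the libraries.

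**Figure D1:**
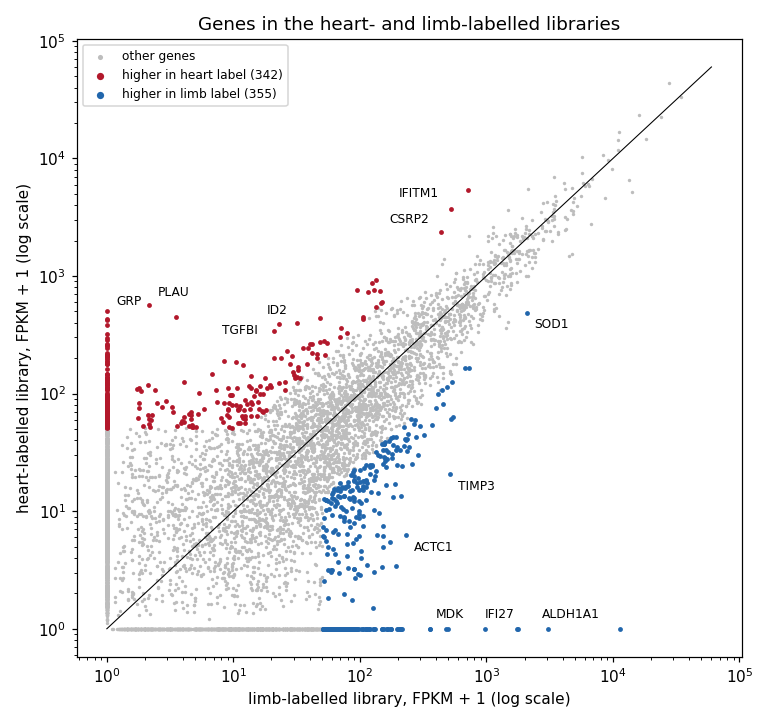
Each point is a gene, placed by its FPKM plus 1 in the limb-labelled library (x axis, log scale) and in the heart-labelled library (y axis, log scale). Red points are the 342 members higher in the heart-labelled library, blue points the 355 higher in the limb-labelled library and grey points all other genes; the line marks equal values. Members line the axes at the far left and the bottom, where the lower library is listed at 0.

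A value of 0 in the lower library was common among the members. Of the 342 higher in the heart-labelled library, 194 (56.7%) were listed at 0 in the limb-labelled library, and of the 355 in the other direction 152 (42.8%) were listed at 0 in the heart-labelled library. The heart-labelled library had more genes above 0, 6634 against 5319. Among members above 0 on both sides the median ratio after adding 1 was 7.18 for the 148 on the heart side and 6.41 for the 203 on the limb side. The widest of these ratios belonged to PLAU, the urokinase plasminogen activator, at 264 on the heart side and to ANGEL2 at 84.8 on the limb side.

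Most members sat close to the minimum. The median higher value was 76.6 FPKM on the heart side and 86.1 on the limb side. Of 1063 genes whose higher value lay between 50 and 100 FPKM, 41.4% were members, against 23.02% of the 669 between 100 and 200, 15.5% of the 497 between 200 and 500, 8.26% of the 218 between 500 and 1000 and 3.32% of the 241 at 1000 or more. Of the 346 members listed at 0 in the lower library, 263 came from the lowest of these bands. How many reads stand behind a value of 50 FPKM could not be recovered, so whether a 0 marks a missing transcript or a missed one was not tested.

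**Figure D2:**
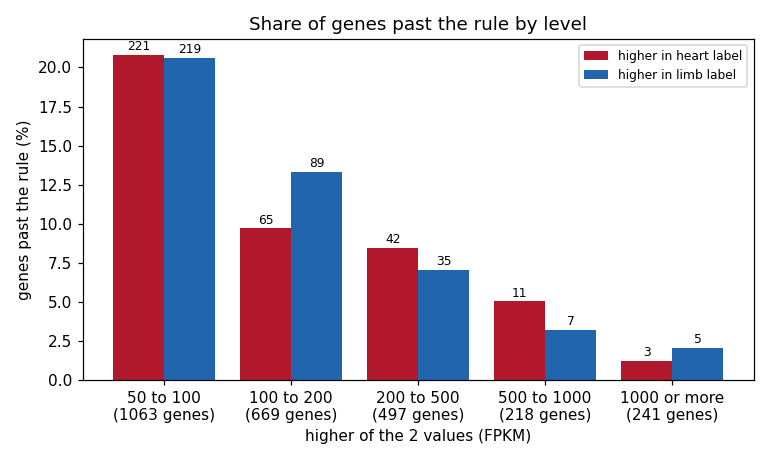
Bars give the percentage of genes past the rule (y axis) in 5 bands of the higher of the 2 FPKM values (x axis, with the number of genes in each band), red for higher in the heart-labelled and blue for higher in the limb-labelled library, with the number of members above each bar. The share is smaller at higher levels on both sides, down to 3 and 5 members among the 241 genes at 1000 FPKM or more.

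At the edges of the rule the ratio ran without a gap. On the heart side NAA50, RNASEK and MRPL55 lay just inside at ratios of 4.01 to 4.02, and LRRN4CL, MED19 and HAGH just outside at 3.97 to 3.94. In the other direction PUS3, NT5DC3 and C6H4orf48 lay just inside at 4.01 to 4.03, and HSPB1, EIF2A and C1H3orf38 just outside at 3.99 to 3.98. HSPB1, a small heat shock protein, was the most abundant of these at 357 against 1429.8 FPKM. At the minimum TMED1, DYNC1LI1 and GPC1 (50.2 to 50.5 FPKM) were inside on the heart side, with ATP2B4, an unnamed gene (ENSBTAG00000052687) and ADRM1 (49.8 to 49.6) outside. WDSUB1, VRK2 and CCDC160 (50.1 to 50.5) were inside on the limb side, with DPH1, TMEM106C and an unnamed gene (ENSBTAG00000006383) outside at 49.9 to 49.3.

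Among the most abundant members, IFITM1, an interferon-induced membrane protein that blocks virus entry, stood at 3682 against 521 FPKM, with 1473, 349 and 166 in the other 3. CSRP2, a LIM-domain protein of smooth muscle, stood at 2379 against 439.8, with 731, 158 and 415 elsewhere. On the limb side ALDH1A1, the aldehyde dehydrogenase that makes retinoic acid, stood at 0 against 3075, with 268, 317 and 2.34 elsewhere. IFI27, another interferon-induced gene, stood at 0 against 1784, with 25.3, 0 and 0 elsewhere. Both of these limb-side genes were thus at their highest of the 5 libraries in the limb-labelled one, and 0 in the heart-labelled one. SOD1, the cytosolic superoxide dismutase, was at 484 against 2090.5 with 1367, 1228 and 1574 elsewhere, so that the heart-labelled value was the low one of the 5. SOD1 dropped out of the rule after rescaling by the median ratio or by a trimmed mean of log ratios.

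The members were sorted into 65 function lists, and 353 of them (174 on the heart side and 179 on the limb side) fell in at least 1. Over all 2688 genes the median log2 ratio of heart over limb, after adding 1 FPKM, was -0.15. Because genes near the minimum were members more often, the median of the list's higher values is given beside the counts for part of the lists. For the other lists no account is taken of level. The 80 cytosolic ribosomal protein genes at 50 FPKM or more, with a median higher value of 1540 FPKM, held no member in either direction and had a median log2 ratio of -0.12.

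**Figure D3:**
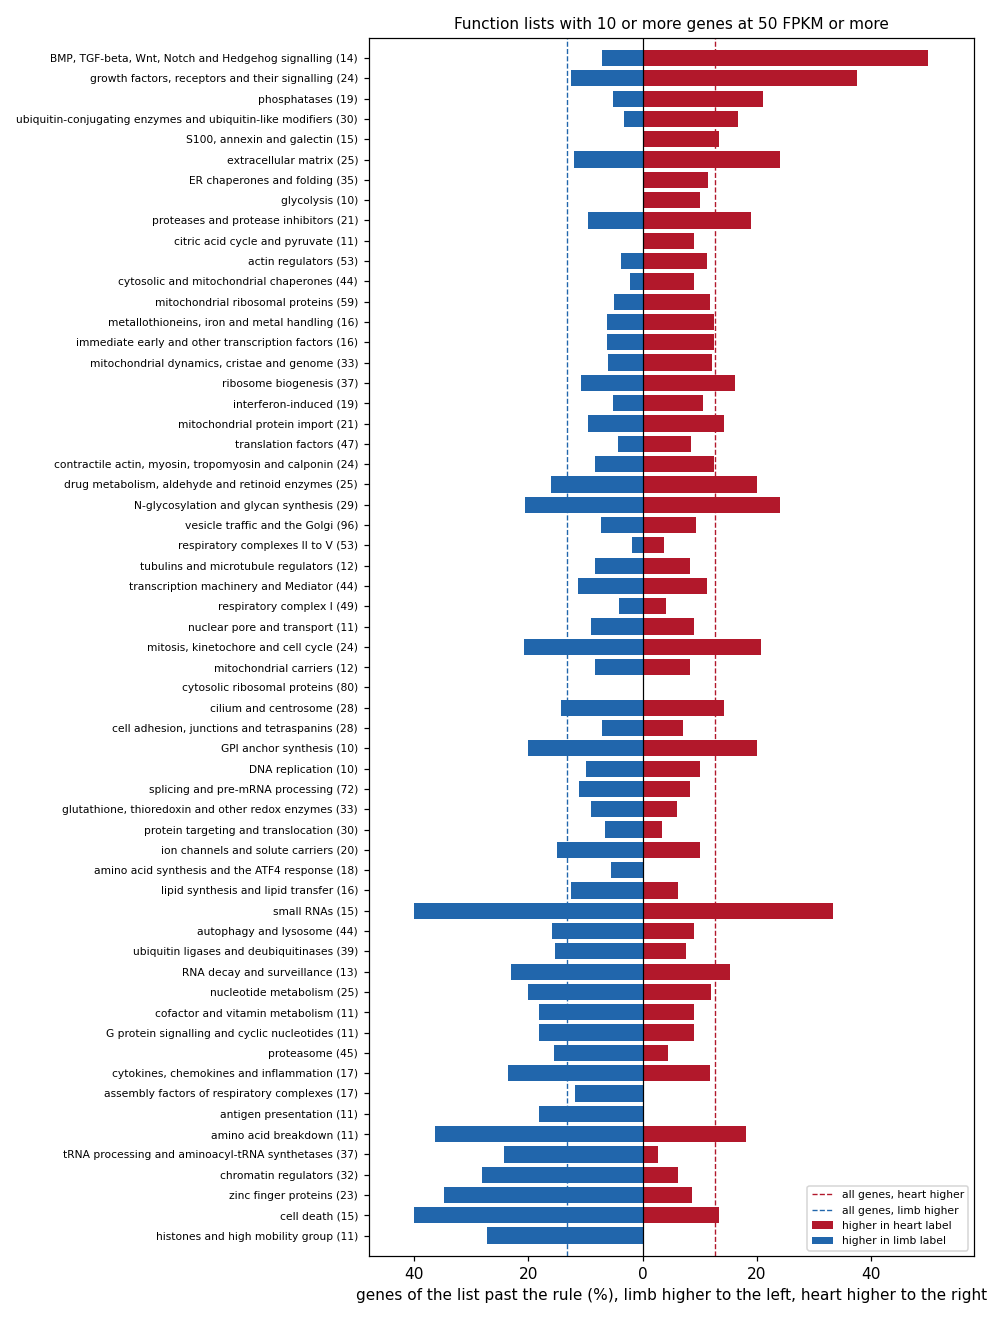
Bars give, for function lists with 10 or more genes at 50 FPKM or more (number in brackets), the percentage of those genes that passed the rule, red to the right for higher in the heart-labelled and blue to the left for higher in the limb-labelled library. Dashed lines mark 12.7% and 13.2%, the shares over all 2688 genes. Lists are ordered by the difference between the 2 shares, from signalling and growth factor lists at the top to histones, cell death and zinc finger proteins at the bottom.

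Among signalling genes of the BMP, TGF-beta, Wnt, Notch, Hippo and Hedgehog pathways, most members lay on the heart side. By direction alone the list was nearly even, with 8 genes above a log2 ratio of 0 and 6 below. Of 14 such genes at 50 FPKM or more, 7 were members on the heart side and 1 on the limb side, with a median log2 ratio of 1.34 and a median higher value of 80.2 FPKM. As shares these were 50% and 7.14%, beside 12.7% and 13.2% over all genes. ID2 and ID3, BMP-responsive inhibitors that bind basic helix-loop-helix factors and keep them off DNA, were both members on the heart side. ID2 was at 387 against 22.1 FPKM, with 96.2, 74.3 and 437 in the other 3 libraries, so the limb-labelled value was the lowest of the 5. ID3 was at 228 against 25.5, with 0, 346 and 431 elsewhere, which placed the heart-labelled value below 2 of the others. TGFBI, a secreted adhesion protein named for its induction by TGF-beta, was at 343 against 19.8, and at 7.25, 82.8 and 0 elsewhere, so the heart-labelled value was the highest of the 5.

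FSTL3, a secreted protein that binds activin and myostatin, was at 362 against 69.7 FPKM, with 198, 0 and 54.9 elsewhere. PMEPA1, a membrane protein that is induced by TGF-beta and dampens the pathway, was at 63 against 14.3, and the other 3 libraries lay between 76.98 and 112, so it was the limb-labelled library that stood apart. HEY1, a repressor downstream of Notch, was at 54.02 against 1.14 and at 0 in each of the other 3. STK3, a kinase of the Hippo pathway, was at 52.1 against 2.58. The only member on the limb side was TGFB1I1, a LIM protein of focal adhesions, at 14.6 against 70.5. The 6 genes of the list that met the minimum and not the ratio included the ligand TGFB2, at 52.98 against 77.1, and ANKRD1, a target of Hippo signalling and a cardiac ankyrin repeat protein, at 764 against 1308. Both of these were higher in the limb-labelled library, opposite to the ID genes.

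The plasminogen system controls the breakdown of matrix at the cell surface, and PLAU and PLAUR were members on the heart side. PLAU, which cuts plasminogen to plasmin, was at 565 against 1.14 FPKM, with 183, 0 and 0 elsewhere. Its receptor PLAUR was at 301 against 68.8 and listed at 0 in each of the other 3. Protease and receptor were therefore both highest of the 5 in the heart-labelled library. PLAT, the tissue-type activator, met the minimum and not the ratio, at 153 against 232. ADAM19, a membrane metalloproteinase, was a further protease member on this side, at 53.5 against 0, and on the limb side DPP7, a dipeptidyl peptidase, was at 5.44 against 65.9.

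Matrix genes divided between the libraries. Of 25 at 50 FPKM or more, 6 were members on the heart side and 3 on the limb side, with a median log2 ratio of -0.01 and a median higher value of 161 FPKM. Shares were 24% and 12%, beside 12.7% and 13.2% over all genes, so the limb-side share was close to that of all genes. Collagen chains lay on the heart side: COL6A2 was at 68.5 against 2.34, and COL5A1, a chain that sets collagen fibril diameter, at 115 against 15.2. For both, the heart-labelled value was the highest of the 5, and the others were at most 16.98 and 15.2. CTHRC1, a secreted protein of matrix-producing fibroblasts, was at 747 against 143, and NID2, a basement membrane nidogen, at 69.2 against 0. The main fibril chains met the minimum and not the ratio. COL1A1 was at 191 against 74.4, COL1A2 at 523 against 174 and COL3A1 at 72.1 against 72.5.

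On the limb side of the matrix list, CCN3, a matricellular protein, was at 0 against 475 FPKM, with 206, 0 and 25.6 elsewhere. Its family members CCN1 and CCN2 did not meet the ratio, at 98.9 against 157 and 629.6 against 1009.7. EFEMP1, the fibulin also known for its part in elastic and basement membrane structures, was at 5.25 against 136, with 75.99, 317 and 194 elsewhere, so its heart-labelled value was the lowest of the 5. ECM2 was at 0 against 53.6. TIMP3, an inhibitor of metalloproteinases that stays bound to the matrix, was at 19.5 against 514, with 508 in the brain-labelled library and 48.3 and 50.2 in the skin- and lung-labelled ones. The brain- and limb-labelled values of TIMP3 were thus close and the heart-labelled value the lowest.

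**Figure D4:**
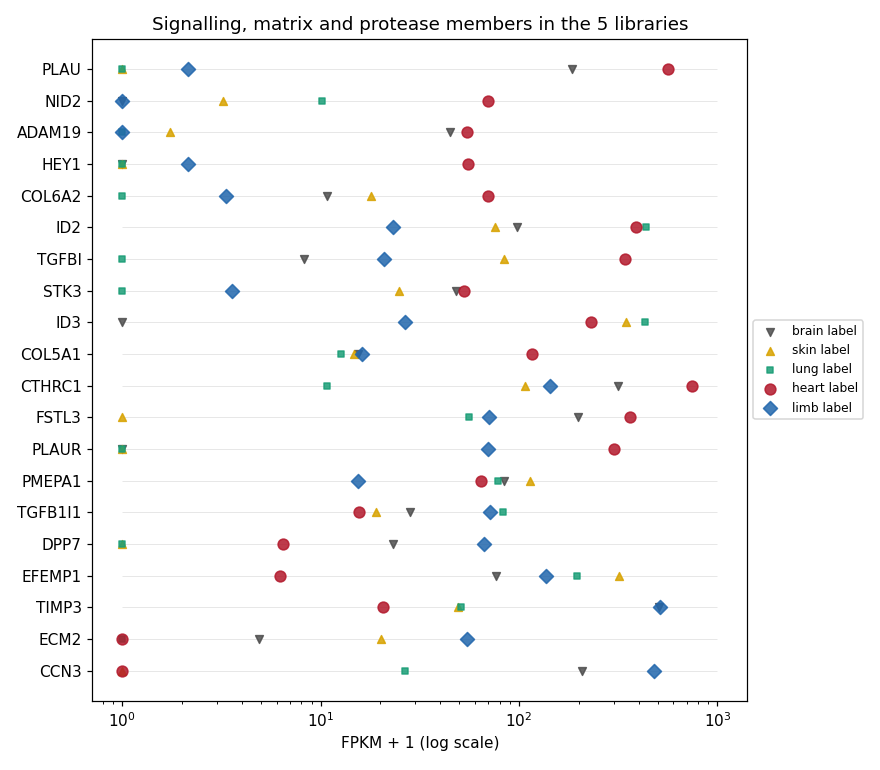
For members in the signalling, matrix and protease lists (y axis, 1 not shown), symbols give FPKM plus 1 in the 5 libraries (x axis, log scale), with red circles for the heart-labelled and blue diamonds for the limb-labelled library. PLAU, TGFBI and CTHRC1 are highest in the heart-labelled library; CCN3, ECM2, EFEMP1 and TIMP3 are lowest there, with CCN3 at 0 in the skin-labelled library and ECM2 at 0 in the lung-labelled library as well.

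Enzymes that modify and fold collagen in the ER (endoplasmic reticulum) lay on the same side as the collagen chains. Of 35 ER chaperone and folding genes, 4 were members on the heart side and none on the limb side, with a median log2 ratio of 0.80 and a median higher value of 143 FPKM. The heart-side share, 11.4%, was close to the 12.7% over all genes, and either rescaling raised the count to 6. P4HA1 and P4HA2, the catalytic subunits of collagen prolyl 4-hydroxylase, were at 93.4 and 207 FPKM against 0 for both. P4HA2 was at 342, 235 and 45.9 in the other 3 libraries, so for P4HA2 the limb-labelled library was the only one of the 5 at 0. P4HA1 was at 60.7, 0 and 0 in the other 3, so its 0 was shared with the skin- and lung-labelled libraries. ERO1A, the oxidase that drives disulfide formation, was at 60.3 against 0, and FKBP11, a prolyl isomerase, at 242 against 37.8. Abundant chaperones met the minimum and not the ratio, HSPA5 (BiP) at 1488 against 847, HSP90B1 at 408 against 144 and PDIA3 at 301 against 87.95.

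Growth factors, their receptors and kinases had 9 members on the heart side and 3 on the limb side out of 24, with a median log2 ratio of 0.77 and a median higher value of 84.3 FPKM. Shares were 37.5% and 12.5%, beside 12.7% and 13.2% over all genes. By direction alone 13 of the genes had a log2 ratio above 0 and 11 below. The heparin-binding growth factors pleiotrophin (PTN) and midkine (MDK), which form 1 family, lay on opposite sides. PTN was at 79.5 against 0, with 0, 121 and 9.93 elsewhere, and MDK at 0 against 492, with 599, 194 and 260.02 elsewhere. The heart-labelled library was the only one of the 5 with MDK listed at 0. HBEGF, a ligand of the epidermal growth factor receptor, was at 72.2 against 17.1. The receptors FGFR1, for fibroblast growth factors, and NTRK2, for brain-derived neurotrophic factor, were at 50.5 against 1.19 and 55.4 against 0.

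Inside the cell, the kinases AKT1 (73.2 against 10.2 FPKM), RPS6KB1 (50.6 against 3.73) and MAPKAPK2 (57.1 against 2.91) lay on the heart side. They carry signals from phosphoinositide 3-kinase, mTOR and p38. SPRY2, which restrains receptor tyrosine kinases, was at 58.7 against 0 and was listed at 0 in the other 3 libraries too. MAP2K1 (MEK1), the kinase directly upstream of ERK, lay on the limb side at 18.8 against 89.2. The phosphatases DUSP23 and DUSP28 lay on opposite sides, at 69.2 against 0 and 0 against 68.8.

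Contractile and actin genes had members in both directions. ACTG2, the smooth muscle gamma actin, was at 136 against 0 FPKM and at 0 in each of the other 3, whereas ACTC1 was at 5.21 against 231, with 57.7, 0 and 0 elsewhere. PPP1R14A, an inhibitor of myosin phosphatase in smooth muscle, was at 873 against 122.8, below the skin-labelled value of 1812. MYL12B, a regulatory myosin light chain, was at 0 against 116 and between 65.4 and 103 in the other 3. Among 53 actin regulators 6 were members on the heart side and 2 on the limb side. These shares, 11.3% and 3.77%, were below the 12.7% and 13.2% over all genes. RHOC, a small GTPase of cell shape, was the most abundant at 269 against 53.9, followed by PDLIM2 (94.7 against 13.5), TES (83.5 against 0), MARCKSL1 (74.3 against 0), the capping protein subunit CAPZB (74.2 against 0) and ABI1 (67.02 against 0). PDLIM1, a relative of PDLIM2, lay on the limb side at 30.9 against 167, as did the actin-binding twinfilin TWF1 at 15.2 against 93.3.

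Calcium-binding S100 proteins, annexins and galectins had 2 members of 15, both on the heart side. That share, 13.3%, was close to the 12.7% over all genes. S100B, a marker of nerve sheath cells and of some chondrocytes and fat cells, was at 201 against 0 FPKM, with 0, 30.8 and 0 elsewhere. SOX10, a marker of nerve sheath and neural crest cells, was listed at 0 in both libraries. S100A14 was at 145 against 0, while the other 3 libraries lay between 108 and 142. So S100B was highest in the heart-labelled library and S100A14 was listed at 0 in the limb-labelled library alone.

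Members with the largest ratios on the heart side included secreted and stress-related genes. GRP, the gastrin-releasing peptide, was at 501 against 0 FPKM, with 0, 0 and 26.5 elsewhere. CCL17, a T cell attracting chemokine, was at 265 against 0, with 162, 0 and 293 elsewhere. SGK1, a kinase induced by glucocorticoids and serum, was at 380.5 against 0, and GADD45G, a stress and growth arrest gene, at 195 against 0. TMEM40, a membrane protein, was at 427 against 0, and PARM1, a mucin-like membrane protein, at 188 against 0. Outside the 25 largest ratios, CD59, which protects cells from complement, was at 394 against 30.9, and the interferon-induced LY6E at 61.8 against 0.

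Several genes of basic cell functions on this side were listed at or near 0 in the limb-labelled library alone. TIMM17B, a subunit of the mitochondrial import channel, was at 425 against 0 FPKM and at 309, 349 and 529 elsewhere. UQCRC2, a core subunit of respiratory complex III, was at 242 against 0 and at 265, 182 and 171 elsewhere. EIF3I, a subunit of translation initiation factor 3, was at 451 against 2.49, with 458, 766 and 276 elsewhere. For all 3 the limb-labelled value was the exception among the 5. The same pattern held for SYNJ2BP, an outer mitochondrial membrane protein (251 against 0), and for the mitochondrial ribosomal genes MRPS18C (219.6 against 0) and MRPL50 (214 against 0).

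Retinoid and steroid enzymes had limb-side members beside ALDH1A1, all far below it in level. ALDH1A3, another retinaldehyde dehydrogenase, was at 0.760 against 86.1 FPKM, with 0.610, 0 and 4.76 elsewhere, and so shared the direction of ALDH1A1. HSD17B2, which inactivates oestradiol and testosterone, was at 4 against 150.7, and HSDL2 at 2.46 against 113. The list as a whole had 5 members on the heart side and 4 on the limb side of 25. Its shares were 20% and 16%, beside 12.7% and 13.2% over all genes. The heart-side aldehyde enzymes were ALDH4A1, of proline breakdown, at 109.7 against 9.65, and ALDH7A1, of lysine breakdown, at 74.7 against 0. PON2, a lactonase, was at 150.5 against 28.7, DHRS11 at 75.9 against 0 and CYP20A1 at 57.6 against 0.

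The proteasome, the complex that degrades ubiquitin-tagged proteins, had 2 members on the heart side and 7 on the limb side of 45 genes, with a median log2 ratio of -0.70 and a median higher value of 371 FPKM. The limb-side share, 15.6%, was close to the 13.2% over all genes. PSMB9, an interferon-inducible catalytic subunit of the immunoproteasome, was at 0 against 208 FPKM and at 494, 123.2 and 341 elsewhere, so the heart-labelled library was the exception. The other immunoproteasome subunits, PSMB8 (120.4 against 221) and PSMB10 (80.5 against 184), were above 0 in both and did not meet the ratio. PSMG4, an assembly chaperone, was at 62.2 against 542. Regulatory particle subunits made up the rest: PSMD4, a ubiquitin receptor, at 15.2 against 111, PSMD12 at 53.1 against 371, PSMC4 at 28.9 against 138, PSMD11 at 37.8 against 155 and PSMD2 at 11.4 against 53.4. Rescaling by the median ratio removed PSMD11, and rescaling by the trimmed mean removed PSMD11 and PSMD2, which left 3 heart-side members and 6 or 5 limb-side ones, since 1 gene was added on the heart side. PSMC6, another ATPase subunit, lay on the opposite side at 262 against 41.03, as did the deubiquitinase UCHL5 at 59.5 against 3.65.

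Among redox enzymes both superoxide dismutases of the cell interior were on the limb side, with SOD2, the mitochondrial form, at 0 against 63.1 FPKM and at 56.4, 52.6 and 41.8 elsewhere. NQO1, a quinone reductase, was at 0 against 90.8. The heart side held PRDX3, a mitochondrial peroxidase, at 104 against 0.870, and the glutaredoxin GLRX at 58.7 against 0. The list had 2 members on the heart side and 3 on the limb side of 33. Its shares, 6.06% and 9.09%, were below the 12.7% and 13.2% over all genes.

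Cell death genes had 2 members on the heart side and 6 on the limb side of 15, with a median log2 ratio of -1.14 and a median higher value of 111 FPKM. As shares these were 13.3% and 40%, beside 12.7% and 13.2% over all genes. The limb-side members spanned both promoters and inhibitors of apoptosis. BAD (0 against 63.8 FPKM), PMAIP1 (NOXA, 41.2 against 175) and DIABLO (17.2 against 89.5) favour death, and BIRC2 (2.14 against 58.5) restrains it. BCL2L13 was at 0 against 84.95, and CIDEA, a lipid droplet protein also tied to cell death, at 0 against 105. On the heart side PDCD6, a calcium-binding protein, was at 245 against 34.7 beside GADD45G. PMAIP1 dropped out after either rescaling.

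Chromatin regulators had 2 members on the heart side and 9 on the limb side of 32, with a median log2 ratio of -0.54 and a median higher value of 84.0 FPKM. The list's shares were 6.25% and 28.1%, beside 12.7% and 13.2% over all genes. Polycomb subunits, which keep genes silent, lay on both sides: EED (0 against 75.5), PCGF6 (0 against 53.05) and RBBP7 (23.6 against 195) on the limb side and PCGF1 (60.1 against 0) on the heart side. EED was between 61.5 and 67.8 in the other 3, so its 0 was in the heart-labelled library alone. Enzymes on the limb side were the deacetylases HDAC3 (32.4 against 152) and SIRT3 (0 against 86.9), which acts mainly in mitochondria, the arginine methyltransferase PRMT5 (0 against 80.98) and the acetyltransferase KAT5 (0 against 57.8). YEATS4 and VPS72, which belong with KAT5 to related remodelling complexes, were at 3.30 against 62.7 and 23.2 against 124. The histone chaperone ASF1A lay on the heart side at 75.6 against 0.

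Zinc finger proteins had 2 members on the heart side and 8 on the limb side of 23, with a median log2 ratio of -1.73 and a median higher value of 83.3 FPKM. The list's shares were 8.70% and 34.8%, beside 12.7% and 13.2% over all genes. The limb-side members were ZNF22, ZNF346, ZSCAN31 and ZC3H6, all at 0 in the heart-labelled library and at 54.8 to 76.9 in the limb-labelled one, and ZNF567, ZMAT3, ZNF771 and ZNF593. The last of these, a ribosome assembly factor, was the most abundant at 36.5 against 154 and dropped out after either rescaling. ZNF660 (54.6 against 0) and ZNF75D, a name that 2 entries carry, were on the heart side. Apart from the list, ZIC4, a developmental zinc finger factor, was at 0 against 88.5 and at 0 in the other 3 libraries. Histone genes added H4C3, H2AC6 and H2AC18 to the limb side of 11, or 27.3%, with no member on the heart side. The median log2 ratio of the histone and high mobility group list was 0.04. Near-identical copies of histone genes share reads and their values are uncertain.

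Genes of transfer RNA processing and charging had 1 member on the heart side and 9 on the limb side of 37, with a median log2 ratio of -0.54 and a median higher value of 90.0 FPKM. Shares were 2.70% and 24.3%, beside 12.7% and 13.2% over all genes. ELP4, of the Elongator complex that modifies wobble uridines, was at 4.50 against 171, and RPP21, of ribonuclease P, at 5.20 against 97.9. The methyltransferases TRMT5 (0.980 against 74.5), TRMT10C (13.99 against 68.6) and TRMT11 (0 against 86.9) were on the same side, as were TSEN54 of the splicing endonuclease (0 against 80.6), DTWD1 (0 against 64.9), the pseudouridine synthase PUS3 (21.2 against 88.1) and the tyrosine synthetase YARS1 (23.6 against 111). PUS3 dropped out after either rescaling. MTFMT, which formylates the mitochondrial initiator, was the heart-side member at 77.2 against 10.2. Synthetase genes that met the minimum and not the ratio lay in both directions, among them TARS1 at 281 against 176 and WARS1, an interferon-induced synthetase, at 315 against 570.3.

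Nucleotide metabolism was divided inside 1 pathway, that of thymidylate. DUT, which makes the precursor dUMP, was at 256 against 0 FPKM, with 204, 1839 and 1479.9 elsewhere, and the thymidylate kinase DTYMK at 76.3 against 0. TYMS, which converts dUMP to thymidylate, was at 0 against 55.3, with 9.03, 265 and 199 elsewhere. All 3 values in the higher library were below the highest of the other 3. NUDT1, which clears oxidised nucleotides, was at 0 against 163, NME6 at 27.6 against 155, and the nucleotidases NT5C3A and NT5C lay on opposite sides at 0 against 76.8 and 51.7 against 0.

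Genes of cell division were likewise divided, 5 against 5 of 24, or 20.8% each way beside 12.7% and 13.2% over all genes. CKS2, a subunit of cyclin-dependent kinases, was at 321 against 0 FPKM, with 39.2, 82 and 1318 elsewhere. CENPS and CENPV of the kinetochore region were at 62.7 against 0 and 99.8 against 4.35. Of the anaphase-promoting complex, ANAPC16, ANAPC7 and CDC16 were all on the limb side, at 0 against 88.4, 0 against 72.2 and 19.6 against 119.9. GMNN, an inhibitor of replication licensing, was at 63.4 against 0, and PLK2, a stress-responsive kinase, at 98.9 against 413, a ratio that either rescaling took below 4.

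Mitochondrial genes lay on both sides. Of 59 mitochondrial ribosomal protein genes, 7 were members on the heart side and 3 on the limb side, although the list's median log2 ratio was -0.38. These shares, 11.9% and 5.08%, were below the 12.7% and 13.2% over all genes. The limb-side genes MRPL18 (43.2 against 320.3 FPKM), MRPS33 (32.2 against 205) and MRPS14 (42.02 against 193) were all above 0 in the lower library, while MRPS12 (127 against 0), MRPS30 (73.1 against 0) and MRPS31 (55.4 against 0) on the heart side were not. The heart-side genes MRPL28 (111 against 8.14) and MRPL55 (605 against 149.8) were above 0 in both. Respiratory complex I had 2 members each way of 49, or 4.08%, below the shares over all genes. Complexes II to V were also below them, at 3.77% and 1.89%, with 2 and 1 members of 53. COX7A1, the heart and muscle form of a cytochrome oxidase subunit, was the limb-side one, at 59.3 against 525, with 115, 709.95 and 8.19 elsewhere. Metaxins of the outer membrane divided, with MTX2 at 175 against 10.9 and its partner MTX1 at 29.6 against 179.

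The autophagy and lysosome list had 4 members on the heart side and 7 on the limb side of 44. These shares were 9.09% and 15.9%, beside 12.7% and 13.2% over all genes. MAP1LC3C, a protein that coats autophagosomes, was at 435 against 47.1 FPKM, with BECN1 (80.8 against 13.1), ATG3 (183 against 9.53) and the nutrient-sensing GTPase RRAGA (121 against 0) on the same side. The limb side held the early factors ATG13 (7.23 against 81.5) and ATG5 (13.6 against 60.2, lost after either rescaling), the coat protein GABARAPL1 (9.69 against 86.2) and lysosomal genes. Of the latter, ATP6V1A, the catalytic subunit of the proton pump, was at 0 against 205, the protease CTSL at 0 against 105 and the fucosidase FUCA1 at 2.22 against 89.1. These 3 lysosomal members were thus on the limb side, and autophagy factors were on both.

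Glycan synthesis was also mixed, with 7 heart-side and 6 limb-side members of 29. These shares were 24.1% and 20.7%, beside 12.7% and 13.2% over all genes. The subunits of the oligosaccharyltransferase, which attaches N-glycans, divided: STT3A was at 139 against 12.8 FPKM, and TUSC3 and MAGT1, which belong to complexes with the other catalytic subunit, at 0 against 77.1 and 16.4 against 69.04. ALG2 and ALG3, of the mannose steps before transfer, were on the heart side at 62.1 and 76.7 against 0, and MPI, which supplies the mannose, on the limb side at 0 against 54.7. CMAS and SLC35A1, which activate and carry sialic acid, were both on the heart side, at 106 against 6.28 and 61.5 against 0, and ST8SIA1, a sialyltransferase of gangliosides, on the limb side at 0 against 85.4. B3GAT3 and B4GALT7, which build the linker of proteoglycans, were both on the limb side at 10.02 against 62.3 and 11.5 against 52.8, and B4GALT7 and MAGT1 dropped out after either rescaling.

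Amino acid breakdown had 2 and 4 members of 11, or 18.2% and 36.4%, beside 12.7% and 13.2% over all genes. PCCB (0 against 116 FPKM), HIBCH (6.33 against 82.2) and BCKDHB (15.4 against 78.5), all of branched-chain amino acid degradation, were on the limb side, and BCAT1, the transaminase that opens that pathway in the cytosol, on the heart side at 71.7 against 11.2. ASS1, of arginine synthesis, was at 0 against 111, and SRM, the spermidine synthase, at 87.8 against 0. Both were counted in this list, so its shares are not of breakdown enzymes alone. Vesicle traffic, the largest list with 96 genes, had 9 and 7 members, and splicing had 6 and 8 of 72, both lower in share than all genes on either side.

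Ubiquitin-conjugating enzymes and modifiers had 5 members on the heart side and 1 on the limb side of 30, and ubiquitin ligases and deubiquitinases had 3 and 6 of 39. Shares were 16.7% and 3.33% for the former and 7.69% and 15.4% for the latter, beside 12.7% and 13.2% over all genes. UBE2T, which works with the Fanconi anaemia ligase, was at 77.7 against 0 FPKM, while FANCL, that ligase itself, was on the limb side at 13.7 against 122. UBE2F, UBE2K and UBE2Q2 were also listed at 0 in the limb-labelled library, at 71.5, 67.04 and 64.96 in the heart-labelled one. UBE3A, the ligase lost in Angelman syndrome, lay on the limb side at 16.8 against 98.6, USP12 at 3.55 against 101 and KLHL20 at 1.90 against 96.2.

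Transcription machinery had 5 members each way of 44, or 11.4%, close to the 12.7% and 13.2% over all genes. The Mediator subunits MED28 (146 against 0 FPKM), MED18 (60.8 against 0) and MED31 (68.5 against 3.60) were all on the heart side, with CDK9 (72.1 against 0) and SUPT4H1 (87.97 against 11.3), which act on paused polymerase. GTF3A, the factor that starts 5S ribosomal RNA transcription, lay on the limb side at 2.44 against 194, the elongation factor LEO1 at 22.3 against 108, and TFB2M, of mitochondrial transcription, at 35.2 against 182. INTS10 (0 against 51.3) and GTF2H3 (20.6 against 87.1) completed that side and dropped out after either rescaling. Subunits of the RNA exosome divided, with EXOSC7 at 62.8 against 0 and EXOSC1 and EXOSC3 at 0 against 128 and 68.4.

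Cytokine and immune genes had 2 and 4 members of 17, or 11.8% and 23.5%, beside 12.7% and 13.2% over all genes. RARRES2 (chemerin), a chemoattractant, was at 0 against 149 FPKM, and GIMAP4, IRAK1BP1 and LAT2 at 0 against 69.9, 60.2 and 60.2. All 4 were listed at 0 in the brain-, skin- and lung-labelled libraries as well, and the blood markers PTPRC, CD68 and CD3E were at 0 in both libraries compared. F2R, the thrombin receptor, was at 6.96 against 89.4, and CD81, a tetraspanin found on most cells, at 125 against 532, which either rescaling took below a ratio of 4.

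In the 3 libraries the rule did not use, heart-side members were more often on the heart-labelled side than limb-side members were on the limb-labelled side. Each value was placed by the log midpoint between the heart- and limb-labelled values plus 1. Of the 342 heart-side members, 231 (67.5%) were on the heart side by their brain-labelled value, 185 (54.1%) by their skin-labelled and 199 (58.2%) by their lung-labelled value. Of the 355 limb-side members, 187 (52.7%), 153 (43.1%) and 177 (49.9%) were on the limb side in the same libraries. All 3 other libraries sided with the higher one for 106 heart-side and 67 limb-side members, and none of them for 53 and 81. The limb-labelled value was the highest of all 5 libraries for 258 (72.7%) of its members and the heart-labelled value for 192 (56.1%) of its own. These counts share the heart- and limb-labelled values with the rule, and the level bands of the members differ, so they are given without a test.

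**Figure D5:**
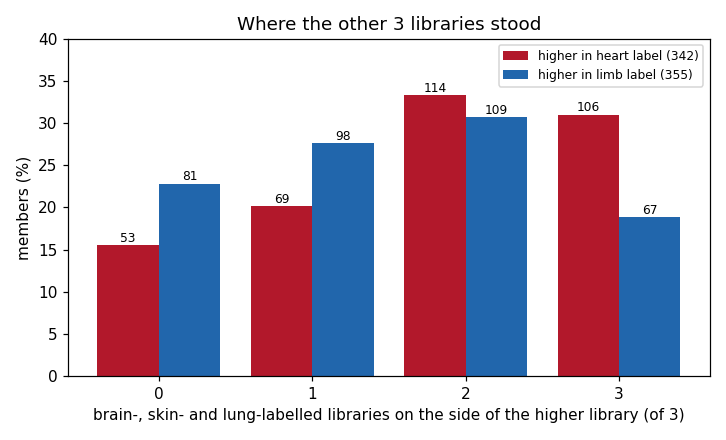
Bars give the percentage of members (y axis) for which 0, 1, 2 or 3 of the brain-, skin- and lung-labelled libraries lay on the side of the higher library (x axis), red for the 342 members higher in the heart-labelled and blue for the 355 higher in the limb-labelled library, with counts above the bars. The tallest bars are at 2 libraries for both directions, and 106 heart-side against 67 limb-side members are at 3.

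Applied to the other 9 pairs of libraries, the same rule gave between 513 genes (19.6% of 2623, brain against heart) and 1146 (39.0% of 2939, skin against limb). The heart and limb labels, with 697, were the second closest pair by count, and the brain and limb labels followed with 735 of 2763 (26.6%). These pairs share libraries and are not independent.

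Among the members were 63 entries without a gene name, 27 on the heart side and 36 on the limb side, which no list could hold. The entry ENSBTAG00000043565 had the highest value of any member, at 0 against 11394 FPKM, and the entry ENSBTAG00000019017 the highest on the heart side, at 5352 against 718. Small RNAs gave 5 members on the heart side (U6, U1, SNORA2C, SNORA73 and SNORD10) and 6 on the limb side, of 15 at 50 FPKM or more. These shares, 33.3% and 40%, were above the 12.7% and 13.2% over all genes. SNORD19B, which guides ribosomal RNA methylation, was at 0 against 1751 and at 0 elsewhere. The 3 5S_rRNA members held the same value of 75.4 in the limb-labelled library, and 12 members in all shared their 5 values with another entry, so copies that cannot be told apart count more than once among them.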

How the data were processed

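The deposited data are 1 table by the authors, with 27607 genes in rows and 1 column for each of 5 libraries. Per the submitters' processing notes, bcl2fastq, STAR and RSEM were used with the ARS-UCD1.2 build, and the sources used here give neither their versions nor the annotation. The deposited values were taken as FPKM by elimination, since no source names the unit: 99.0% of values above 0 in the heart- and limb-labelled libraries were not whole, and these libraries summed to 1103270 and 1126700, above what TPM can sum to. RSEM also writes estimated counts that need not be whole, and whether the deposited values are such counts was not settled. If they were, they would not be scaled by length or library total, and the minimum of 50 would be a count. FPKM scales by length and library total, so a few abundant genes move all others, and the reads behind a value are lost. Whole-number ratios among low values left several relative depths nearly equally good (139, 135 and 131 of 2857 genes), so no counts, intervals or count tests were used.

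The rule (at least 50 FPKM, ratio of 4 after adding 1 to both) was applied with Python 3.11.15, numpy 2.4.6 and pandas 2.3.3. A check of the code on simulated data multiplied limb-labelled values by set factors, without noise. Its outcome follows from the rule, so it says nothing about noise or missed transcripts. Adding 1 makes ratios of low genes too small, and none is printed against a value of 0. The members, the 65 lists and the tests were chosen with earlier results of these data known, and 101 pairs of list and name caught by a family prefix were removed, member or not, after values were seen. Named genes follow a fixed rule: in each direction the 25 largest ratios, the 10 highest values, the 5 largest ratios above 0 in both, the 3 genes on each side of each threshold, and up to 8 members a list (in part, and some are not reported here). Genes named as short of the ratio are examples chosen after their values were seen. Names were used as the table gives them. Of 17887 distinct names 16583 were symbols in a RefSeq table of a later assembly, and 0 identifiers matched it, so no coordinates or sequences are given. Alternatives were other minimums, added values and ratios, rescaling, and leaving out small RNAs, unnamed genes and genes at 0.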

Additional observations from a re-analysis of the deposited data

How the results depend on the processing

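No paired analysis was possible because each label has 1 library, and no library could be left out. The count on the heart side, 342 in the report, was 970 at a minimum of 20 FPKM, 121 at 100, 56 at 200, 2314 with no minimum, 560 at a ratio of 2 and 148 among genes above 0 in both libraries. The count on the limb side, 355, was 724, 136, 47, 1267, 718 and 203 under the same settings, and 227 at a ratio of 8. The heart side's share of all members, 49.1%, was 57.3% at a minimum of 20, 54.4% at 200, 64.6% with no minimum, 43.8% at a ratio of 2, 53.4% at a ratio of 8, 55.0% and 55.2% after rescaling by the median ratio and the trimmed mean, and 42.2% among genes above 0 in both. Which side held more members therefore depended on these settings. The share listed at 0 in the lower library, 49.6%, was 64.3% at a minimum of 20, 32.3% at 100, 33.0% at 200, 78.7% with no minimum, 53.4% and 58.3% with 5 and 10 added, 27.1% at a ratio of 2 and 71.0% at a ratio of 8. These settings change which genes are counted by construction.

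Rescaling shifted the log2 ratio of heart over limb by 0.13 (median ratio) and 0.14 (trimmed mean) toward the heart side. It kept 655 and 654 of the 697 members and reversed 0. Counting entries with identical values once, an alternative chosen after seeing the data, gave 340 and 350. Without replicates and with unknown depth, no value here carries an error, and values near 50 FPKM may rest on few reads.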

Other observations

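A further 281 named members, 141 on the heart side and 140 on the limb side, fell in no function list, and the genes in this paragraph and the next were picked from among them after their values were seen. Partners of 1 complex lay on opposite sides in several cases. AMP-activated protein kinase, an energy sensor, had its catalytic subunit PRKAA1 and its gamma subunit PRKAG1 on the limb side, at 0 against 75.5 and 0 against 72.8 FPKM, and the alternative gamma subunit PRKAG2 on the heart side, at 198 against 19.97. Of the cerebral cavernous malformation proteins, which bind each other, KRIT1 and CCM2 were on the limb side at 2.17 against 58.7 and 24.4 against 255, and PDCD10 on the heart side at 219 against 41.04. In the vitamin K cycle VKORC1, which regenerates the vitamin, was at 159.6 against 0, and GGCX, the carboxylase that uses it, at 3.79 against 59.9.

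Abundant heart-side members outside the lists were the LIM proteins CRIP1 (760.1 against 93.2 FPKM) and CRIP2 (731 against 116), relatives of CSRP2, and the membrane protein TM4SF1 (919.8 against 133). P3H4, which takes part in collagen lysine hydroxylation, was at 82.5 against 8.30, on the side of P4HA1 and P4HA2. On the limb side 2 genes known from striated muscle, the carbonic anhydrase CA3 and the ankyrin repeat protein ANKRD2, were at 0 against 176 and 0 against 126, beside ACTC1. The skeletal muscle regulators MYOD1 and MYOG were listed at 0 in both libraries. PTHLH, the parathyroid hormone related peptide, was at 0 against 66.9, and NDN (necdin), a growth suppressor of neurons and muscle precursors, at 0 against 52.97.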
